A study of Mus musculus with 6 samples.

Results

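The genes described here are 33 genes of synaptic vesicles and of the machinery that releases them, taken by symbol from a table of 24391 genes measured in brains of newborn mice. All 33 symbols were in the table, and all 33 passed the filter on low counts, with at least 87 reads in every library. In a presynaptic terminal, transmitter is pumped into vesicles, the vesicles are held in a cluster, and some of them dock at the active zone, a protein scaffold under the release site. Calcium then triggers the SNARE proteins on vesicle and plasma membrane to zip together and fuse the membranes, after which the SNAREs are pulled apart and the vesicle membrane is taken back in by endocytosis. In rodents many of these transcripts are already present at birth, before most cortical synapses have formed.

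The study asked how RNA levels differ when the RNA-binding protein CELF2 is lost from the brain. Total RNA was taken from frozen hemibrains at postnatal day 0 of pups labelled Celf2 -/- (null-labelled, n = 3, replicates 2, 4 and 10) and Celf2 +/- (heterozygous, n = 3, replicates 6, 7 and 11). Both groups carry at least 1 mutant Celf2 allele, so no wild-type brain is in the comparison, and the sources used here do not give the design of the allele, the strain, the litter or the sex. Nothing says how the replicates were bred, so p-values measure the spread between these 6 samples, which may in part be technical.

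Library totals lay between 28831997 and 36531980 counts. Reads of the targeted gene Celf2 gave 390 ± 58.4 CPM (counts scaled to a common library size) in null-labelled libraries and 408 ± 48.5 CPM in heterozygous libraries (SD over 3 libraries in each group), and an exact permutation test, two-sided, gave p = 0.7, where 0.1 is the smallest p it can reach. Gene totals cannot show whether a deleted exon was read, so the genotype rests on the labels. Neuronal markers, 9 of 9 of them tested, summed to between 8178 and 8716 CPM in null-labelled libraries and between 7867 and 8807 CPM in heterozygous libraries, so the ranges of the groups overlap. In null-labelled replicate 2, 11.8% of counts were on Rn45s, a ribosomal precursor, against at most 1.27% elsewhere. Ddx3y, on the Y chromosome, had 0 counts in null-labelled replicates 4 and 10 and heterozygous replicate 7, which allows up to 0.104 CPM, so both sexes are in both groups.

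The hemibrains also differed in markers of brain region. The 11 Hox genes of the hindbrain and spinal list summed to between 3.40 and 7.08 CPM in null-labelled libraries and between 10.6 and 189 CPM in heterozygous libraries, and 8 of 8 tested members were lower in the null-labelled group. Hoxa5 and Hoxb5 were at 0 in some libraries. The 8 telencephalic markers summed to between 1329 and 1529 CPM in null-labelled libraries and between 1010 and 1111 CPM in heterozygous libraries, with 8 of 8 higher. Astrocyte markers summed to between 1162 and 1470 CPM in null-labelled libraries and between 1510 and 1647 CPM in heterozygous libraries, with 8 of 8 lower in the null-labelled group. In bulk tissue, fewer cells of a type cannot be told apart from less RNA per cell, and the part that these shifts play in the results below was tested only through a covariate for the Hox level.

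Of the 33 presynaptic genes, 0 passed an adjusted p of 0.05 between the genotypes in edgeR's quasi-likelihood test over 15925 genes, where 1 gene passed (0.00628%), and 0 passed in DESeq2, where 0.402% of genes did. The smallest adjusted p of a presynaptic gene was 0.496, for Syp. At an unadjusted p of 0.05, edgeR counted 6 of 33 genes (18.2%), with Rims1 higher and Syp, Synpr, Syngr3, Stx1a and Dnm1 lower in null-labelled libraries. The same rule took 7.06% of all genes tested, 4.13% of them higher and 2.93% lower, and 10.2% of the genes with a mean of at least 50 CPM. Of the 30 presynaptic genes at that level, 5 (16.7%) reached it. DESeq2 counted 6 genes by the same rule, with Sv2c in place of Dnm1. The split depended on single libraries: without null-labelled replicate 10 it was 5 higher and 1 lower (Syp), and without null-labelled replicate 2 it was 2 higher and 2 lower. Over all genes tested, the rule took 8.87% without null-labelled replicate 10 (865 higher, 575 lower). Without null-labelled replicate 2 it took 5.62% (569 higher, 343 lower).

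The median log2 fold change, null-labelled over heterozygous, was -0.05 over the 33 genes, with 14 positive and 19 negative, against -0.001 over all genes tested. CPM values of the groups did not overlap for 7 of the 33 genes (21.2%), against 12.7% of all genes. Syp, Stx1a, Vamp2, Napb and Dnm1 were lower in every null-labelled library than in any heterozygous one, where 6.47% of all genes were. Nsf and Rims1 were higher in every null-labelled library, where 6.21% of all genes were. For 31 of the 33 genes the 95% interval of the fold change lay within 1.5-fold in both directions, and the exceptions were the scarce transcripts Sv2c and Slc17a8.

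**Figure D1:**
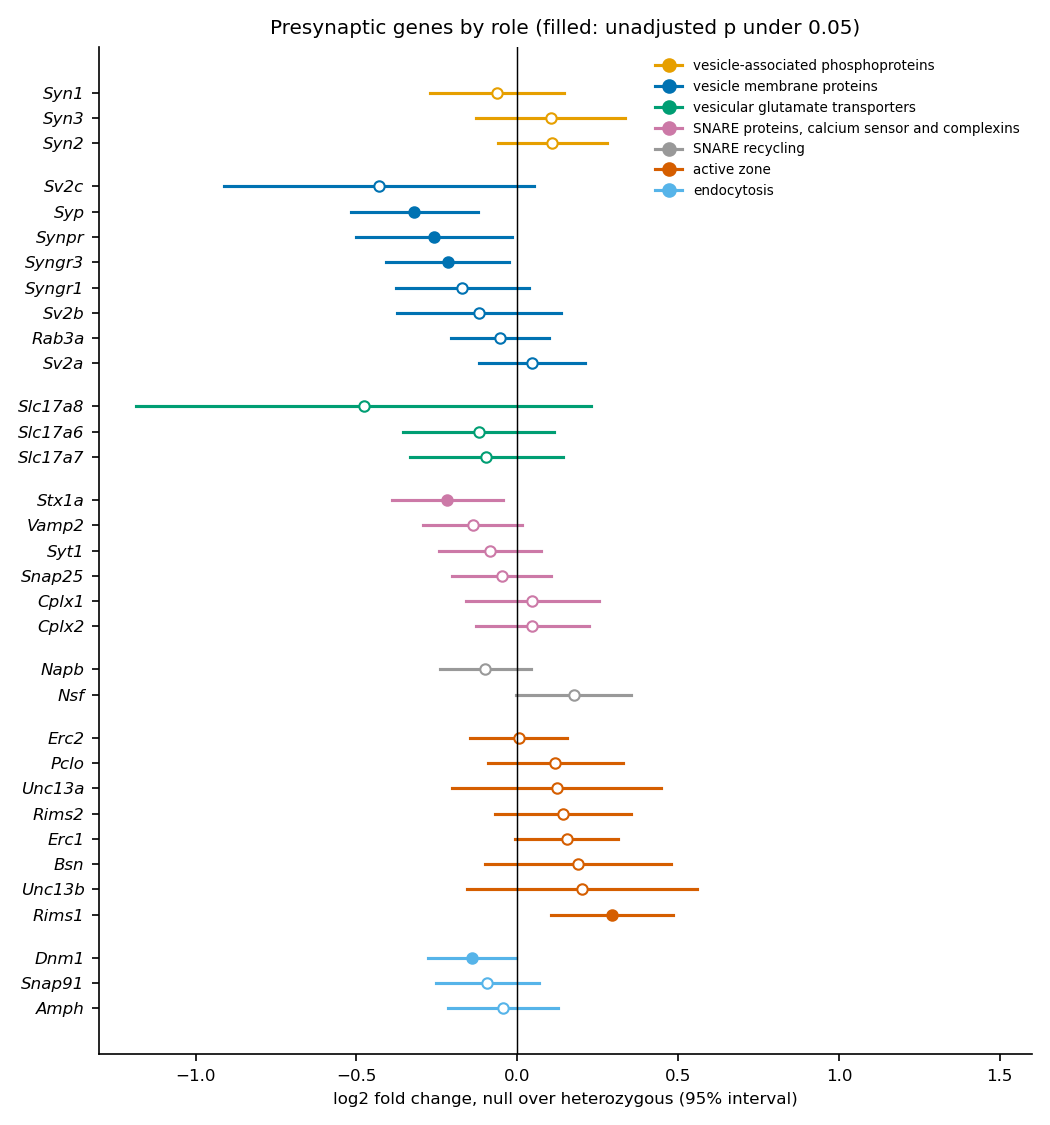
Log2 fold change of each presynaptic gene, null-labelled over heterozygous, with its 95% interval (edgeR, n = 3 libraries each), grouped by role. Filled points mark the 6 genes at an unadjusted p of 0.05. The 8 active zone genes lie between 0.004 and 0.295, and 7 of 8 vesicle membrane genes lie below 0.

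Of the 19 genes with a negative fold change, 7 are in the role group of vesicle membrane proteins. The glutamate transporters, Vamp2 and Syt1, also proteins of the vesicle membrane, are listed under other roles. Of the 8 genes in the vesicle membrane group, 7 were negative and 1 was positive, with a median of -0.19. In this group 0 passed the adjusted threshold and 3 reached an unadjusted p of 0.05, as 7.06% of all genes tested did. Syp encodes synaptophysin, an abundant vesicle protein that binds the SNARE protein synaptobrevin. It had 409.6, 505 and 516 CPM in null-labelled replicates 2, 4 and 10, against 623.5, 596 and 567 CPM in heterozygous replicates 6, 7 and 11. Null-labelled replicate 2 was the lowest library, and the groups did not overlap. Mean levels were 477 ± 58.7 CPM in null-labelled libraries and 596 ± 28.0 CPM in heterozygous libraries (SD, n = 3 each), so the null-labelled level was 80.1% of the heterozygous one, with an interval of 69.9% to 91.9% (log2 fold change -0.32, SE 0.09, unadjusted p = 0.00444, adjusted p = 0.496). Leaving out single libraries gave between -0.38 and -0.22, with -0.22 without null-labelled replicate 2. Syp lies on the X chromosome, and with presence of Y-linked reads as a covariate its fold change was -0.38 (adjusted p = 0.243).

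Synpr, which encodes the synaptophysin relative synaptoporin, had 37.3, 44.3 and 38.9 CPM in null-labelled libraries, against 51.5, 50.5 and 42.3 CPM in heterozygous libraries. Null-labelled replicate 4 lay above heterozygous replicate 11, so the groups overlapped (-0.26, SE 0.11, unadjusted p = 0.0393, adjusted p = 0.682). Syngr3, which encodes synaptogyrin 3, another vesicle protein, had 129.6, 148 and 128 CPM in null-labelled libraries, against 174, 152 and 146.5 CPM in heterozygous libraries. Of the heterozygous libraries, replicate 11 lay below the highest null-labelled one (-0.22, SE 0.09, unadjusted p = 0.03045, adjusted p = 0.653). Its relative Syngr1 was at -0.17 (SE 0.09, adjusted p = 0.778).

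The SV2 glycoproteins, transporter-like proteins that help prepare vesicles for calcium-triggered fusion, did not share a direction. Sv2a, the broadly expressed form, was at 0.045, Sv2b at -0.12 and Sv2c at -0.43 (SE 0.22, adjusted p = 0.749). Sv2c is found in the basal ganglia, midbrain and brainstem of rodents, and had 11.7, 13.4 and 11.5 CPM in null-labelled libraries, against 15.9, 22.4 and 11.2 CPM in heterozygous libraries. The highest value was in heterozygous replicate 7, the library with the highest Hox sum (189 CPM), and without it the fold change was -0.15. Rab3a, a small GTPase that tethers vesicles to the active zone, had 299.7, 336 and 323 CPM in null-labelled libraries, against 343, 332 and 320.4 CPM in heterozygous libraries, with overlap (-0.05, SE 0.07, interval -0.21 to 0.10).

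**Figure D2:**
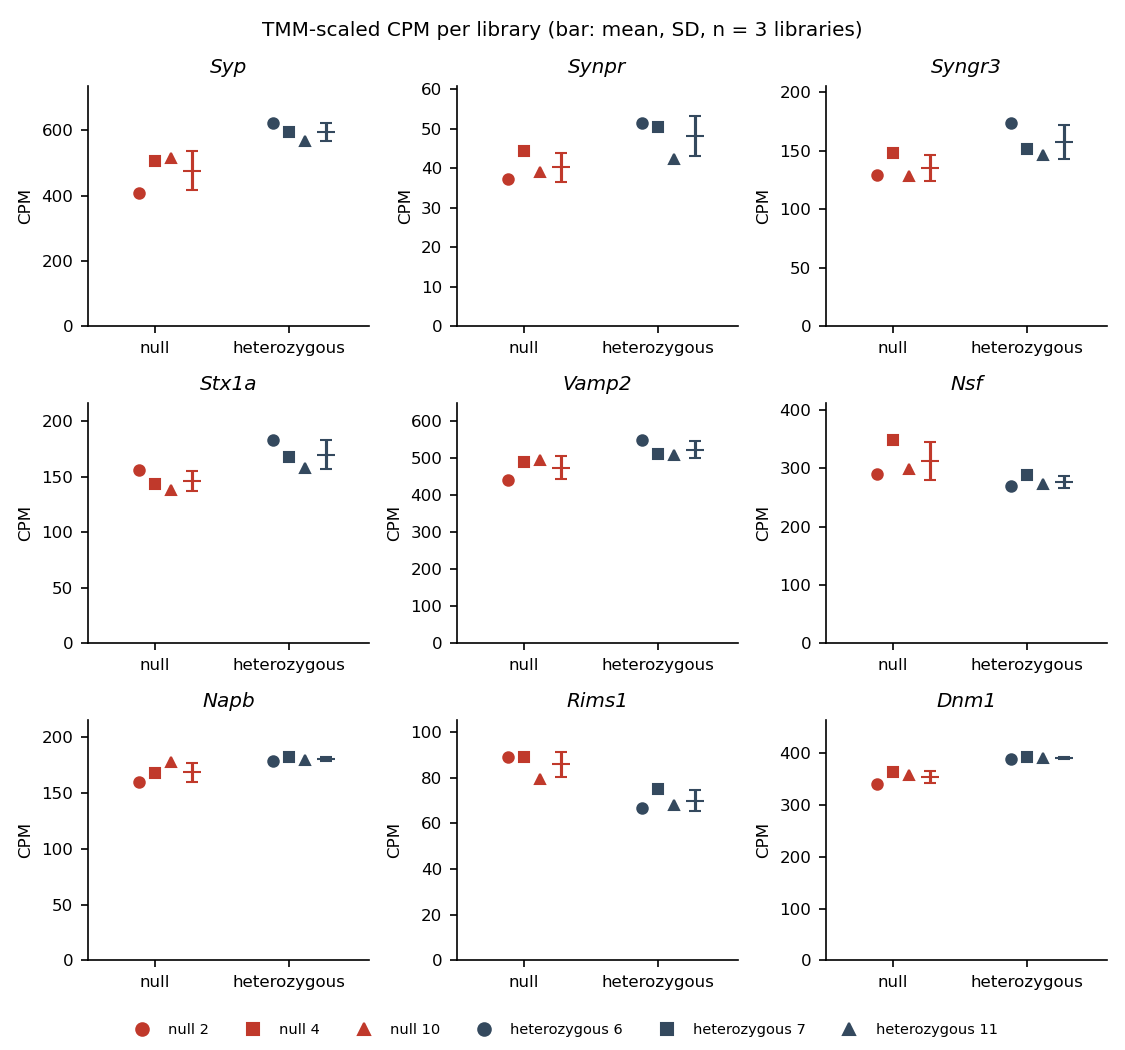
TMM-scaled CPM (vertical axis, from 0) in each library for the 9 presynaptic genes at an unadjusted p of 0.05 or with no overlap between groups. Points are libraries, and bars give mean and SD of 3. Syp is at 409.6 to 516 CPM in null-labelled libraries and 567 to 623.5 CPM in heterozygous ones, while Rims1 is at 79.7 to 89.3 CPM in null-labelled libraries and 66.9 to 75.2 CPM in heterozygous libraries.

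The region around the Syp start site is shown as the promoter of the gene with the smallest p among those lower. Beside it is that of Rims1, the gene with the smallest p among those higher. Both are RefSeq windows of build GRCm38.p6, from 250 bases before to 50 bases after the start, at chrX:7638330-7638629 on the plus strand for Syp and chr1:22806109-22806408 on the minus strand for Rims1. Capitals mark GGGCGG or its complement CCGCCC, the GC box that Sp1-type factors bind, searched on both strands.
Syp: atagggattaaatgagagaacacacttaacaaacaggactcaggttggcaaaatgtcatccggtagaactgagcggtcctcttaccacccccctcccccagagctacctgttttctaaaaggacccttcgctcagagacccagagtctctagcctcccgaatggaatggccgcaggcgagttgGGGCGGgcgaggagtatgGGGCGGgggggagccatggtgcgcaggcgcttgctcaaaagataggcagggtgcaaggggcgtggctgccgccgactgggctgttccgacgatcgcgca
Rims1: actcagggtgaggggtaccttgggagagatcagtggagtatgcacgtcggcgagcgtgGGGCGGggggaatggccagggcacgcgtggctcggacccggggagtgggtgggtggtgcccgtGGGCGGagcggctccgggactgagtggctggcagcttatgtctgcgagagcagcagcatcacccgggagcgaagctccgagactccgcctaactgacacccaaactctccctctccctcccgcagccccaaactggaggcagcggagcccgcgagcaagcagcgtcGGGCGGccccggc
The Syp window held the box 2 times and the Rims1 window 3 times, with the last Rims1 box after the start site. G and C made up 59.0% of the Syp window and 69.3% of the Rims1 window. Of the 28 presynaptic genes with a window in the table, 21 had a GC box, against 66.3% of 11912 tested genes with a window. The CCAAT motif was in 6 of 28, against 42.2% of those genes, and TATAAA in 1 of 28, against 9.3%. The part of the GC box in either fold change was not tested. These matches describe the letters only.

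The synapsins, phosphoproteins that tether vesicles in the reserve cluster, showed little difference. Syn1 had 253.6 ± 27.9 CPM in null-labelled libraries and 265 ± 24.5 CPM in heterozygous libraries (-0.06, SE 0.095, adjusted p = 0.949). Syn2 was at 0.11 (SE 0.08) and Syn3 at 0.10 (SE 0.10), and 0 of 3 reached an unadjusted p of 0.05. The interval of Syn1, -0.27 to 0.15, covers levels between 82.8% and 110.6% of the heterozygous one.

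Vesicular glutamate transporters load glutamate and mark which excitatory neurons a sample holds. Slc17a6 encodes VGLUT2, the form of thalamus, midbrain and hindbrain and of immature cortex. It had 122, 167 and 162 CPM in null-labelled libraries, against 164, 167 and 159 CPM in heterozygous libraries. Only null-labelled replicate 2 stood apart, below all others, and the fold change of -0.12 (SE 0.11, adjusted p = 0.888) was 0.01 without it. In that library the 5 midbrain markers also summed to 7.37 CPM, against 35.0 to 48.2 CPM elsewhere, whereas the 6 thalamic markers summed to 433 CPM there, against 265 to 418 CPM elsewhere. The part of either in the Slc17a6 value was not tested. Slc17a7, or VGLUT1, the main cortical and hippocampal form, had 64.2, 61.6 and 50.4 CPM in null-labelled libraries, against 67.5, 62.9 and 58.0 CPM in heterozygous libraries (-0.10, SE 0.11, adjusted p = 0.922). Slc17a8, or VGLUT3, found in scattered cells such as serotonergic neurons, was the scarcest of the 33, with 3.82, 5.98 and 2.96 CPM in null-labelled libraries, against 8.63, 4.71 and 4.47 CPM in heterozygous libraries (-0.48, SE 0.32, adjusted p = 0.837). Heterozygous replicate 6 carried most of that difference, since the fold change was -0.10 without it.

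The SNARE proteins that form the fusion complex all had negative fold changes. Stx1a encodes syntaxin 1A, the plasma membrane SNARE, and had 156, 144 and 138 CPM in null-labelled libraries, against 183, 168 and 158 CPM in heterozygous libraries. The groups did not overlap, although null-labelled replicate 2 and heterozygous replicate 11 nearly met (-0.22, SE 0.08, unadjusted p = 0.0176, adjusted p = 0.629). Vamp2, synaptobrevin 2, the vesicle SNARE, had 439, 488 and 493 CPM in null-labelled libraries, against 548, 509 and 507 CPM in heterozygous libraries, again with no overlap (-0.14, SE 0.07, unadjusted p = 0.0729, adjusted p = 0.745). Snap25, the partner that adds a pair of helices to the bundle, was at -0.05 (SE 0.07, interval -0.20 to 0.10) with overlapping groups.

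Syt1, the calcium sensor of fast release, was at -0.085 (SE 0.07, adjusted p = 0.882), with 364 ± 26.3 CPM in null-labelled libraries and 386 ± 15.0 CPM in heterozygous libraries. The complexins, which clamp and then aid the assembled SNARE complex, were both at 0.05, with intervals of -0.16 to 0.26 for Cplx1 and -0.13 to 0.22 for Cplx2. Of the 6 genes of this group, 2 were positive and 4 negative, and 1 reached an unadjusted p of 0.05. Scaling by total counts in place of TMM moved the median of all tested genes to -0.086 and made all 6 negative.

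Nsf, the ATPase that pulls used SNARE complexes apart, and Napb, a brain SNAP protein that couples it to them, had opposite signs. Nsf had 289.7, 349 and 299 CPM in null-labelled libraries, against 269.6, 289 and 273 CPM in heterozygous libraries (0.175, SE 0.08, unadjusted p = 0.0537, adjusted p = 0.717). Every null-labelled library lay above every heterozygous one, but null-labelled replicate 2 exceeded heterozygous replicate 7 by less than 1 CPM. Napb had 159.7, 167.5 and 177 CPM in null-labelled libraries, against 179, 182 and 179 CPM in heterozygous libraries (-0.10, SE 0.06, unadjusted p = 0.153, adjusted p = 0.833).

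Active zone scaffold and priming genes all had positive fold changes, 8 of 8, with a median of 0.15, although 0 passed the adjusted threshold and 1 reached an unadjusted p of 0.05. Rims1, a scaffold that links vesicles, calcium channels and priming factors, had 89.3, 88.9 and 79.7 CPM in null-labelled libraries, against 66.9, 75.2 and 68.1 CPM in heterozygous libraries. The groups did not overlap, and the means were 86.0 ± 5.44 CPM in null-labelled libraries and 70.1 ± 4.46 CPM in heterozygous libraries (SD, n = 3 each). The null-labelled level was 123% of the heterozygous one, with an interval of 108% to 139.9% (log2 fold change 0.295, SE 0.09, unadjusted p = 0.0057, adjusted p = 0.522). Without single libraries it lay between 0.26 and 0.35. Its relative Rims2 was at 0.14 (SE 0.095, adjusted p = 0.842).

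Bassoon and piccolo are giant proteins that organise the active zone. Bsn had 249.6, 234.5 and 293 CPM in null-labelled libraries, against 189, 222 and 270.0 CPM in heterozygous libraries (0.19, SE 0.13, adjusted p = 0.842). The groups overlapped, and replicates 10 and 11 were the highest of their groups. Pclo was at 0.12 (SE 0.095, adjusted p = 0.875). Unc13a and Unc13b encode Munc13 proteins, which prime docked vesicles by opening syntaxin, and were at 0.12 (SE 0.14) and 0.20 (SE 0.16). Null-labelled replicate 2 held the highest value of both, 327 CPM for Unc13a and 93.5 CPM for Unc13b, and without it their fold changes were -0.04 and 0.003. The ELKS scaffold genes were at 0.15 for Erc1 (SE 0.07, unadjusted p = 0.0595, adjusted p = 0.728) and 0.004 for Erc2 (SE 0.07).

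CELF proteins bind U- and GU-rich stretches of RNA, so the 3′ UTRs of the 33 genes were searched for TGTTTGT on the transcript strand, in the longest coding-transcript 3′ UTR of each gene in GENCODE M21. The heptamer was in 15 of 33 genes (45.5%), against 29.0% of 14426 tested genes, but the presynaptic 3′ UTRs were also longer, with a median of 2171 against 1176 bases. Per kilobase it occurred 0.284 times in the presynaptic genes and 0.316 times in all. It was in 7 of 8 active zone genes, with a median 3′ UTR of 3478 bases, and in 1 of 8 vesicle membrane genes, with a median of 1982 bases. Pooled per kilobase, the active zone genes held 0.328 matches, close to the rate of all genes, and the vesicle membrane genes 0.05. Because most active zone genes had a match, the 30 bases around its first match are shown for each of the 7, with the heptamer in capitals.
Rims1: ttccactagttTGTTTGTtttgttttgttt
Rims2: gtcttaggtttTGTTTGTttgttaatttgg
Bsn: gtgtgtgtgtgTGTTTGTgcgtgtgtgcac
Pclo: gaaggtgactgTGTTTGTgggggaaattaa
Unc13a: gtacatgggagTGTTTGTttagggaattgt
Erc1: cataaatgtagTGTTTGTggtctttgtgtt
Erc2: gctgctgctggTGTTTGTataccatggtgc
In Rims1 the heptamer runs on into a stretch of T and G, and in Bsn it follows a GT repeat. Of the 6 genes at an unadjusted p of 0.05, Rims1 had a match, and Syp, Synpr, Syngr3, Stx1a and Dnm1 had 0. The median fold change was 0.05 for the 15 presynaptic genes with a match and -0.095 for the 18 without, against 0.03 and -0.01 over all tested genes. Over all tested genes, the median 3′ UTR was 2377 bases with a match and 849 bases without. Fold changes were also higher for longer transcripts (below), so match and length cannot be told apart here. Matches are letters in an annotated sequence and do not show binding.

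Endocytosis genes were 0 of 3 positive, with a median of -0.09. Dnm1 encodes dynamin 1, the GTPase that pinches off recycled vesicles in neurons. It had 341, 363 and 358 CPM in null-labelled libraries, against 388, 393 and 390.2 CPM in heterozygous libraries, with no overlap and a spread of only 2.36 CPM (SD) in the heterozygous group (-0.14, SE 0.06, unadjusted p = 0.0443, adjusted p = 0.699). The clathrin adaptor Snap91, or AP180, was at -0.09 (SE 0.07), and Amph, amphiphysin, which brings dynamin to the vesicle neck, at -0.045 (SE 0.08).

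Library by library, the vesicle membrane group overlapped between genotypes and the active zone group separated them narrowly. Averaged over the 8 vesicle membrane genes, log2 CPM deviated from each gene's average by -0.21, 0.04 and -0.11 in null-labelled replicates 2, 4 and 10, against 0.15, 0.17 and -0.04 in heterozygous replicates 6, 7 and 11. Null-labelled replicate 4 lay above heterozygous replicate 11. For the 8 active zone genes the deviations were 0.17, 0.08 and -0.03 in null-labelled replicates, against -0.09, -0.03 and -0.10 in heterozygous ones. Null-labelled replicate 10 lay just above heterozygous replicate 7, and null-labelled replicate 2 was the highest. Without replicate 2 the active zone median was 0.10, with 6 of 8 positive, and the vesicle membrane median -0.14, with 7 of 8 negative.

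**Figure D3:**
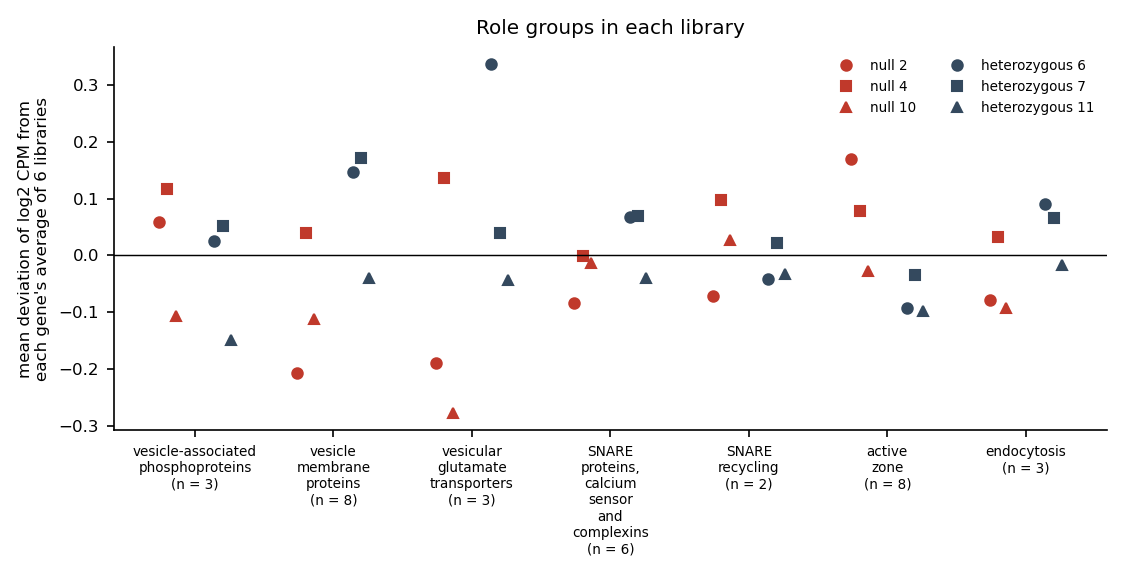
Mean deviation of log2 CPM from each gene's average over the 6 libraries (vertical axis), for 7 role groups, with null-labelled libraries left of heterozygous ones in each group and 1 point a library. Vesicle membrane genes reach -0.21 in null-labelled replicate 2 and 0.17 in heterozygous replicate 7, and active zone genes reach 0.17 in null-labelled replicate 2.

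A fit that held the Hox level fixed moved the vesicle membrane median toward 0 and changed the active zone median little. The vesicle membrane median was -0.05, with 5 of 8 negative, and the active zone median was 0.16, with 8 of 8 positive. Single active zone genes moved both ways, Bsn from 0.19 to 0.06 and Pclo from 0.12 to 0.23. Syp was at -0.24 and Rims1 at 0.39, both with an adjusted p of 1. The Hox level does not overlap between the genotypes, so this covariate also takes up part of any genotype difference. Immediate-early genes, a sign of recent neuronal activity, summed to between 45.5 and 915 CPM in null-labelled libraries and between 48.0 and 63.0 CPM in heterozygous libraries. Their highest values were in null-labelled replicates 4 and 2, and their part in the presynaptic values was not tested.

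Across the table, fold changes were higher for longer transcripts, and the longest of the 33 genes were all positive. Across the 33 genes, Spearman's rho between the deposited length and the log2 fold change was 0.51, and across 15925 tested genes it was 0.23, as descriptions over genes that share the same 6 libraries. All genes longer than 6000 bases had a median of 0.07, and those of 1000 to 2000 bases a median of -0.05. Of the 33, the 8 genes above 6000 bases were positive in 8 of 8 cases, with a median of 0.13. Of these, 7 are active zone genes, the other being Syn3. Their values, from 0.004 (Erc2) to 0.20 (Unc13b), lay within the range of the shorter genes, where Rims1 (4068 bases) was at 0.295. Below 6000 bases there was no steady rise: the medians were -0.135 for the 2 genes of 1000 to 2000 bases, -0.139 for 7 of 2000 to 3000 bases, -0.045 for 5 of 3000 to 4000 bases and -0.119 for 11 of 4000 to 6000 bases. In that last range 3 of 11 were positive, while the median of all genes was 0.036. Active zone lengths ran from 4068 to 22100 bases, and vesicle membrane lengths from 1451 to 5705 bases. With an offset for length in each library, an alternative chosen after the data were seen, the active zone median was 0.075, with 6 of 8 positive and Pclo at -0.02, while the vesicle membrane median was -0.20. Under that offset Syp was at -0.31 and Rims1 at 0.27. Presynaptic genes outside the 33 (below) had both signs above 6000 bases. In the reported fit, Unc13c (8079 bases) was at -0.33 and Dnm3 (7523 bases) at 0.26.

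**Figure D4:**
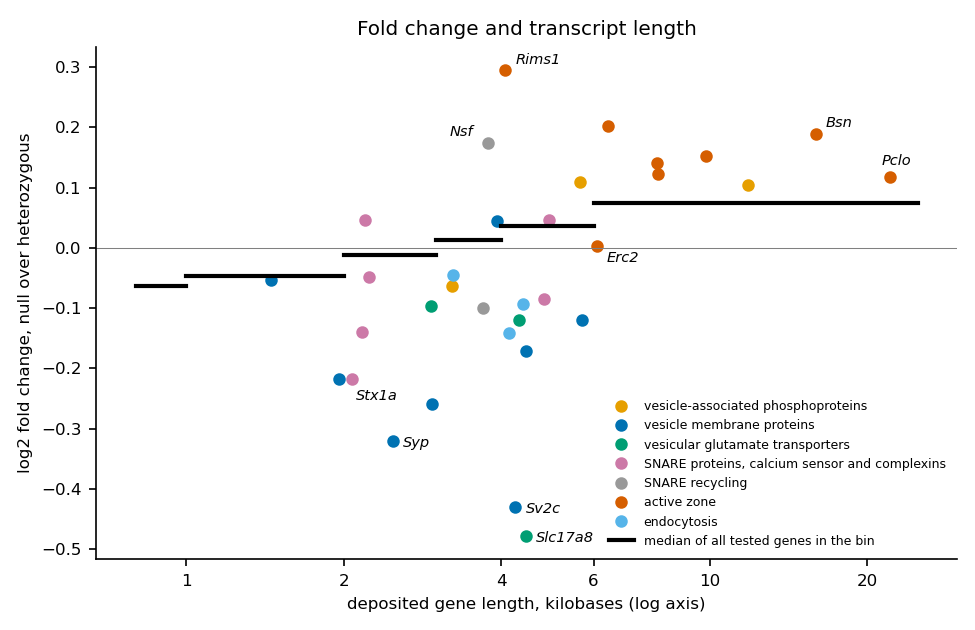
Log2 fold change of each presynaptic gene, null-labelled over heterozygous, against deposited gene length (log axis). Black bars give the median of all tested genes in 6 length bins, from -0.06 to 0.07, with the last bin drawn to 25 kilobases. Active zone genes lie at or above 0 and are mostly long, and Syp and Stx1a are short and below 0.

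Per transcript length, Vamp2, Rab3a and Syp were the most abundant of the 33 genes, and Slc17a8 and Sv2c the least. In TPM, which divides counts by the deposited gene lengths before scaling, Vamp2 was at 604 ± 84.8 in null-labelled libraries and 688 ± 15.9 in heterozygous libraries. Rab3a was at 608 ± 80.4 TPM in null-labelled libraries and 653 ± 0.529 TPM in heterozygous libraries (SD, n = 3 each). Syp was at 532 ± 105 TPM in null-labelled libraries and 685 ± 8.82 TPM in heterozygous libraries. In null-labelled libraries these 3 genes lay within 1 SD of each other, in heterozygous libraries Rab3a lay below the other two, and in both groups all lay above Snap25, at 309 ± 29.6 TPM in null-labelled and 332 ± 16.3 TPM in heterozygous libraries. Every TPM of null-labelled replicate 2 is lowered by its Rn45s share, so TPM is used here only for levels between genes. At the other end, Pclo was at 23.2 ± 3.04 TPM in null-labelled libraries and 22.3 ± 0.972 TPM in heterozygous libraries. Sv2c was at 7.92 ± 1.09 TPM in null-labelled libraries and 11.1 ± 3.66 TPM in heterozygous libraries, and Slc17a8 at 2.64 ± 1.06 TPM in the null-labelled and 3.79 ± 1.37 TPM in the heterozygous group. Slc17a6 stood above Slc17a7, at 96.7 ± 22.7 against 54.7 ± 5.21 TPM in null-labelled libraries and 108 ± 2.70 against 61.0 ± 2.54 TPM in heterozygous libraries.

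**Figure D5:**
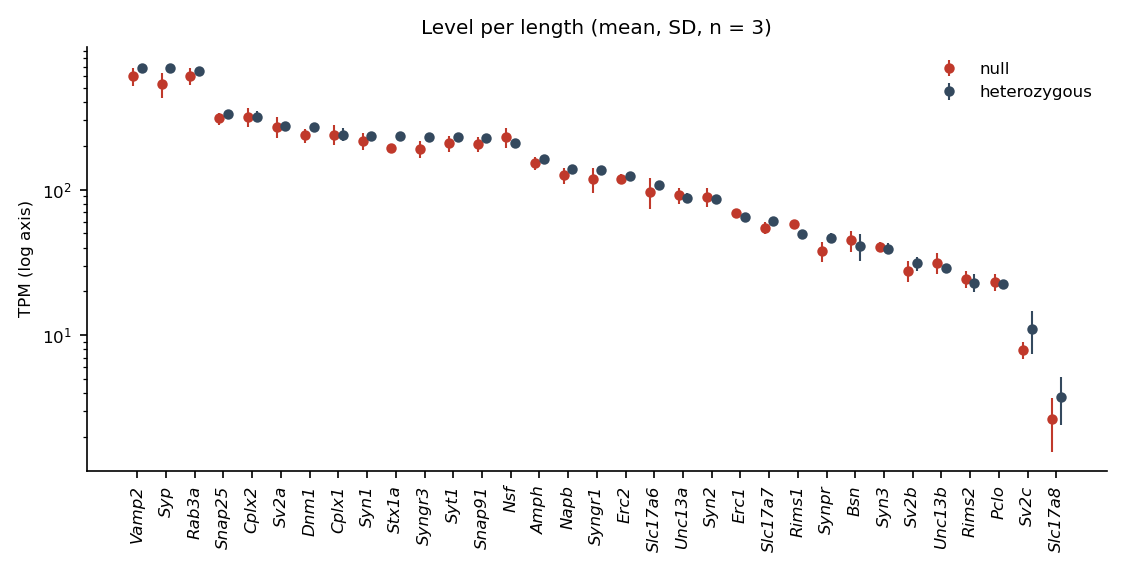
Mean TPM (log axis) with SD over 3 libraries for each presynaptic gene, null-labelled left of heterozygous, in order of the heterozygous mean. Levels run from Vamp2 (604 TPM null-labelled, 688 TPM heterozygous) to Slc17a8 (2.64 TPM null-labelled, 3.79 TPM heterozygous).

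Balances between related genes within a library do not depend on scaling. Among 8 such TPM ratios, the exact two-sided permutation test, whose smallest possible p is 0.1, gave raw p between 0.2 and 0.9 and adjusted p between 0.533 and 0.9. Slc17a7 over Slc17a6, which rises as cortex matures, was 0.773, 0.541 and 0.457 in null-labelled libraries, against 0.603, 0.553 and 0.535 in heterozygous libraries. Null-labelled libraries held both the highest and the lowest ratio. Erc2 over Erc1 was 1.72 ± 0.14 in null-labelled libraries and 1.90 ± 0.073 in heterozygous libraries, and Syn1 over Syn2 was 2.44 ± 0.22 in null-labelled libraries and 2.75 ± 0.115 in heterozygous libraries (SD, n = 3 each). Cplx1 over Cplx2 was 0.757 in both groups. Syp over Synpr was 14.1 ± 1.44 in null-labelled libraries and 14.8 ± 1.01 in heterozygous libraries, so the lower values of both genes left their balance within the spread.

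A further 98 presynaptic genes, listed by role and none of them among the 33, were read in the same fit. Of 95 tested, 0 passed the adjusted threshold in edgeR, and the median was -0.02. An unadjusted p of 0.05 was reached by 16 (16.8%), 8 higher and 8 lower, against 7.06% of all genes tested. That share was 10.2% among genes with a mean of at least 50 CPM. CPM values did not overlap between groups for 24 (25.3%), against 12.7% of all genes. Vamp7, Cplx4 and Atp6v0c were left out by the low-count filter. Among calcium sensors, Syt7, the slow, high-affinity synaptotagmin, had 345, 323 and 342 CPM in null-labelled libraries, against 286, 280.1 and 304 CPM in heterozygous libraries (0.215, unadjusted p = 0.00809, adjusted p = 0.531), and Syt6 was at 0.29. Syt12 was at -0.47. For the active zone and release sites, Rab3c (0.22), the RIM relative Rims3 (0.22) and the scaffold Cask (0.17) were higher, whereas the Munc13 relative Unc13c (-0.33) and Lin7c (-0.17) were lower, each with an adjusted p of at least 0.56. This list had 11 of 22 active zone genes positive, unlike the 8 of 8 above, and the difference between the lists was not tested.

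In the other role groups of the wider list, the dynamin relative Dnm3 had 216, 218 and 193 CPM in null-labelled libraries, against 180.0, 178 and 167 CPM in heterozygous libraries (0.26, unadjusted p = 0.0043, adjusted p = 0.496). Dnm1 and Dnm3 thus had opposite signs. The endocytic scaffold Itsn1 was at 0.25 (adjusted p = 0.639). Lower values at an unadjusted p of 0.05 were those of Stxbp6 (-0.27), Napg (-0.19) and Ap3m2 (-0.18). Vesicle membrane, transporter and pump genes were negative in 11 of 13 cases, with a median of -0.06. The vesicular zinc transporter Slc30a3 had 3.98, 7.53 and 4.28 CPM in null-labelled libraries, against 11.7, 11.7 and 7.95 CPM in heterozygous libraries (-0.98, SE 0.25, unadjusted p = 0.00297, adjusted p = 0.496), and passed in DESeq2 (adjusted p = 0.037). The vesicular acetylcholine transporter Slc18a3 had 3.23, 5.13 and 3.37 CPM in null-labelled libraries, against 5.46, 11.4 and 5.67 CPM in heterozygous libraries (-0.93, SE 0.31, adjusted p = 0.585), and its highest value again was in heterozygous replicate 7, which had the highest Hox sum. With the Hox covariate, Slc30a3 was at -0.54 and Slc18a3 at -0.12.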

How the data were processed

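RNA of 6 hemibrains was measured. The authors deposited read counts as whole numbers, 1 row for each gene symbol, beside a length for the gene; the unit of these deposited counts was read from the values. The labels' protocols give TRIzol extraction and a stranded kit for total RNA, but poly(A) RNA is named in the molecule field and in the design text. Tools in the submitters' processing notes are STAR, cutadapt, CASAVA, bedtools, Picard and MACS2, with builds mm9 and hg19, and their roles are not stated there. How reads were counted, on which strand and with which annotation is not given in the sources used here. Antisense and overlapping genes are therefore uncertain.

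From the counts, genes were kept by filterByExpr and tested with edgeR 4.0.16 (R 4.3.3): TMM factors, robust quasi-likelihood fit, Benjamini-Hochberg adjustment over 15925 genes, threshold 0.05. Each SE is the log2 fold change over the square root of the F statistic. CPM uses TMM-scaled library sizes. Deviations use log2(CPM + 0.5). The common biological coefficient of variation was 13.9%. The smallest chi-square per gene between 2 libraries was 12.8, far above sampling noise, so no library is a copy of another. The upper limit for a count of 0 is 3 counts.

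The 33 genes, the wider list, the marker lists and the tests were chosen with earlier results of these data known. All 33 genes are reported. Values in each library are given for those at an unadjusted p of 0.05, those with no overlap, the most abundant per length and the glutamate transporters. Sv2c and Bsn were added after their values were seen. Named genes of the wider list are up to 8 in each direction with the smallest unadjusted p under 0.05. A gene of that list that the rule names is not reported here. Alternatives were DESeq2 1.42.0, limma-voom (limma 3.58.1), other scalings and filters, covariates, and leaving out each library. Fits were tested on simulated counts. There 44 of 99 genes changed 1.5-fold and 67 of 98 changed 2-fold passed the adjusted threshold, so many changes of 1.5-fold were missed. Of 15626 unchanged genes, 10 passed. Promoters are from RefSeq (GRCm38.p6) and 3′ UTRs from GENCODE M21 (GRCm38), a build that differs from the notes', so sequences were matched by symbol. No coordinates of the reads were used.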

Additional observations from a re-analysis of the deposited data

How the results depend on the processing

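Under the 13 alternatives that kept all libraries and the 6 that left out 1, 0 of 33 presynaptic genes passed the adjusted threshold in edgeR, DESeq2 or limma-voom, and the smallest adjusted p was 0.175, for Rims1 with pups 10 and 11 as a term. The labels name no batch or litter for replicates 10 and 11, so that term is an assumed grouping. Of 627 values of single genes, 599 kept their direction. The count at an unadjusted p of 0.05 was 6, against 3 (all higher) with the Hox covariate, 10 (4 higher, 6 lower) with pups 10 and 11 as a term, and between 2 and 8 without single libraries, the 2 without heterozygous replicate 6. The share of all genes moved too: 7.06% in the reported fit, 2.70% with the Hox covariate, 11.1% with pups 10 and 11 as a term, and from 3.70% (without heterozygous replicate 7) to 9.69% (without heterozygous replicate 11). The median of -0.054 was -0.134 with library size alone, where the median of all genes was -0.086, and 0.068 with the Hox covariate. For the wider list the count of 16 was 9 (all lower) with library size alone, 8 with the Hox covariate, and between 7 and 15 without single libraries, the 7 without heterozygous replicate 7 and 10 without null-labelled replicate 2. Over all genes, the share was 5.59% with library size alone, with 149 genes higher and 742 lower. It was 5.62% without null-labelled replicate 2. The causes were not tested.

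Direction turned for 14 genes, among them Sv2c, whose reported value was -0.43. Library size alone gave Sv2a -0.034, Cplx1 -0.031, Cplx2 -0.035 and Erc2 -0.082. The Hox covariate gave Syn1 0.068, Sv2b 0.137, Sv2c 0.206, Slc17a6 0.00, Snap25 0.064 and Amph 0.068. The Y-linked covariate gave Cplx1 -0.026 and Erc2 -0.014, upper-quartile factors Erc2 -0.017, and the length offset Pclo -0.017 and Erc2 -0.047. Without single libraries the ranges were -0.144 to 0.015 for Syn1, -0.001 to 0.199 for Syn3, -0.203 to 0.011 for Slc17a6, -0.163 to 0.003 for Slc17a7, -0.042 to 0.128 for Cplx1, -0.031 to 0.092 for Cplx2, -0.044 to 0.251 for Unc13a, -0.031 to 0.054 for Erc2 and -0.115 to 0.004 for Amph. For the same omissions Celf2 ranged from -0.176 to 0.039, the log2 ratio Slc17a7 over Slc17a6 from -0.179 to 0.20, and Cplx1 over Cplx2 from -0.114 to 0.072. No paired analysis was possible because the groups share no replicate numbers. Where a setting left a group with 2 libraries, the spread was pooled over both groups.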
